A study of Homo sapiens with 4 samples.

Results

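The selenoproteins and the factors that make and insert selenocysteine were examined in H1299 cells, an established line of human non-small-cell lung carcinoma, after mercury chloride (HgCl2) treatment. The set holds 30 genes, chosen by name because mercury binds selenium: 25 genes with an annotated selenocysteine codon and 5 factors without one. Their 223 transcripts are those among the 227368 transcripts of the count table that carry these gene names in GENCODE 44. H1299 cells were treated for 48 h with 5 μM HgCl2, or with the solvent, 0.6% EtOH, as control, and poly-A RNA was sequenced. Each group has 2 columns of counts, labelled as replicates 1 and 2. The treatment text of the labels names HgCl2 for all 4 samples, while the titles and the study's methods make EtOH the control without HgCl2, which is used here. All samples are of 1 cell line.

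The columns added up to between 4720978 and 5053120 counts. Transcripts with a count numbered 33148 and 33106 in EtOH but 25432 and 25531 in HgCl2, a difference that moves with the low counts described further on, its part in them not tested. The study describes its libraries as independent biological replicates. Between the columns of a group, the variance of the difference was 0.505 times (EtOH) and 0.516 times (HgCl2) that of counting noise between independent samples. The columns of a group thus differed by less than sampling noise, and the pair was counted as 1 sample. Each comparison therefore sets a single sample against another, without a replicate check and without a p-value. A log2 fold change is the ratio of the mean counts of HgCl2 over EtOH after TMM scaling. Its 95% interval is an exact Clopper-Pearson interval from the mean counts and covers counting error only. Counts were taken as usable where the mean over the 4 columns was at least 10, which 11891 of all transcripts reached, with a median log2 fold change of 0.12 (0.28 on the scale of the deposited FPKM). Of the markers examined for the line, VIM had 4 usable transcripts and KRT8 and KRT18 had 1 each, PTPRC and ALB had 0 counts, and COL1A1 and PECAM1 had none that were usable.

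Selenocysteine is an amino acid that resembles cysteine with selenium in place of sulphur, and in most selenoproteins it sits in the active site of an enzyme that reduces peroxides, disulphides or oxidised methionine. It is built on its own tRNA. PSTK phosphorylates the serine carried by this tRNA, SEPHS2 makes selenophosphate, and SEPSECS joins the products into selenocysteyl-tRNA. Its codon is UGA, which elsewhere ends translation; SECISBP2 binds a stem-loop of the messenger, the SECIS element, and with the elongation factor EEFSEC brings the tRNA to the ribosome. Inorganic mercury binds thiols and, more tightly, selenols, and thioredoxin reductase is a well-known target of it.

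The UGA codon lay in a usable transcript in 3 of the 25 genes that have one. The coding bases around it are shown for these transcripts, from the GENCODE 44 transcripts on GRCh38, 5′ to 3′ on the strand of the gene. Capitals mark the selenocysteine codon, written TGA.

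SEPHS2-201, exon 1, chr16:30445533-30445562, minus strand: ggcatgaagggcTGAggctgcaaggtcccg
SELENOK-204, exon 4, chr3:53885826-53885845, minus strand: atggctggtggaTGAggaag
TXNRD3-204, exon 16, chr3:126607908-126607925, minus strand: cagaaaggctgcTGAggc

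In SEPHS2 this was codon 60 of 448, near the start of the protein. In SELENOK it was codon 92 of 94 and in TXNRD3 codon 642 of 643, close to the end. The bases shown stop at the edge of exon 4 in SELENOK and at the end of the coding region in TXNRD3.

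Only a small part of the set could be measured. Of the 223 transcripts, 30 had a count in any column and 11 had usable counts, and these belong to 7 genes: SEPHS2, SEPSECS, PSTK, SECISBP2, SELENOK, SELENOH and TXNRD3. That is 23.3% of the 30 genes, against 32.1% of the 19918 protein-coding genes. The counts lay mostly on a pair of genes, as SEPHS2 and SEPSECS held 87.2% of the counts of the set in EtOH and 86.1% in HgCl2.

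The cytosolic and mitochondrial thioredoxin reductases and all glutathione peroxidases of the set had no usable counts. TXNRD1, the cytosolic enzyme, had at most 1 count in a column over its 19 transcripts, and TXNRD2, the mitochondrial one, had 2 and 1 counts in EtOH and 0 in HgCl2 over 21 transcripts. GPX1, GPX3, GPX4 and GPX6 had 0 counts in every column, and GPX2 had a single count in EtOH replicate 2; these are glutathione peroxidases, with GPX4 the one that reduces lipid hydroperoxides in membranes. The deiodinases DIO1, DIO2 and DIO3, which activate or inactivate thyroid hormone, were at 0, as was MSRB1, which repairs oxidised methionine. Of the selenoproteins of the endoplasmic reticulum, SELENOF, SELENOM and SELENON were at 0, and SELENOI, an ethanolamine phosphotransferase, had at most 1 count in a column. SELENOV and the elongation factor EEFSEC were also at 0. In all, 13 genes had 0 counts in the 4 columns (43.3% of the set, against 41.8% of protein-coding genes), and another 10 had counts but none usable: TXNRD1, TXNRD2, GPX2, SELENOI, SELENOO, SELENOP, SELENOS, SELENOT, SELENOW and SEPHS1. A count of 0 allows a group mean of up to 3 counts, and says that reads were not assigned to these transcripts, not that the gene was silent.

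Where the counts lay went with how much of a transcript is its own. For each transcript, the longest run of bases that no other listed transcript covers, on either strand, was taken from GENCODE 44. Of the 67 member transcripts with a run of at least 150 bases, 22 had a count and 10 were usable. Of the 156 with a shorter run, 8 had a count and 1, SECISBP2-206 with 131 bases, was usable. The canonical transcript, the main messenger by Ensembl's choice, had a shorter run in 17 genes, and all 17 had 0 counts; TXNRD1, GPX1, GPX4 and SECISBP2 are among them. Own bases did not suffice, however. Of the 13 canonical transcripts with a run of at least 150 bases, 4 were usable and 9 were at 0, namely those of DIO3, EEFSEC, GPX6, MSRB1, SELENOF, SELENOI, SELENOO, SELENOT and SELENOV. SELENOI-201 has 6881 and SELENOT-202 has 2446 own bases in a row. The authors counted on Ensembl 98, so these runs are approximate, and their part in the counts was not tested.

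**Figure D1:**
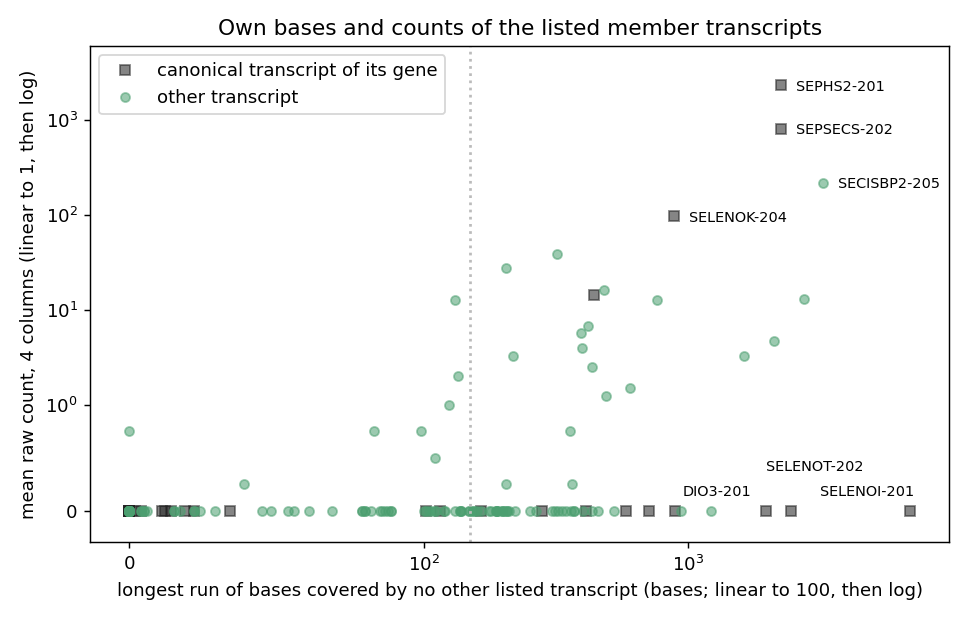
Mean raw count over the 4 columns (vertical axis, linear to 1, then log) against the longest run of own bases (horizontal axis, linear to 100, then log) for the 223 member transcripts; squares are canonical transcripts, circles all others, and the dotted line marks 150 bases. SEPHS2-201, SEPSECS-202, SECISBP2-205 and SELENOK-204 lie at the top right, while DIO3-201, SELENOT-202 and SELENOI-201 have long runs and 0 counts.

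The 4 canonical messengers that could be measured, those of SEPHS2, SEPSECS, SELENOK and TXNRD3, all had more counts in HgCl2 after scaling, and none of their intervals reached 0. Among all 5966 canonical transcripts with usable counts 51.2% lay above 0, with a median of 0.02. TXNRD3 alone was at least 2-fold higher, against 12.3% of canonical transcripts, and none of the 4 was at least 2-fold lower, against 18.7%. Of the 11 usable member transcripts, 3 were at least 2-fold higher in HgCl2, against 21.2% of all usable transcripts, and 3 were at least 2-fold lower, against 19.6%. Their median log2 fold change was 0.47, and 6 lay above 0, against 54.5% of all. The median depends on the minimum: it turned to -0.86 with a minimum mean of 3 counts and to -0.59 with none, both with 7 transcripts at least 2-fold lower, and minimums stricter than a mean of 10 left 0 lower. Among all transcripts the share lower also fell with counts. It was 34.6% from 10 to under 30 counts, 14.3% from 30 to under 200 and 2.03% from 200 up. The columns of the groups did not overlap in any of the 11, as in 89.7% of all usable transcripts. A transcript close to the minimum of 10 counts reaches it through the group where it is higher, so these numbers describe the set and support nothing more.

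**Figure D2:**
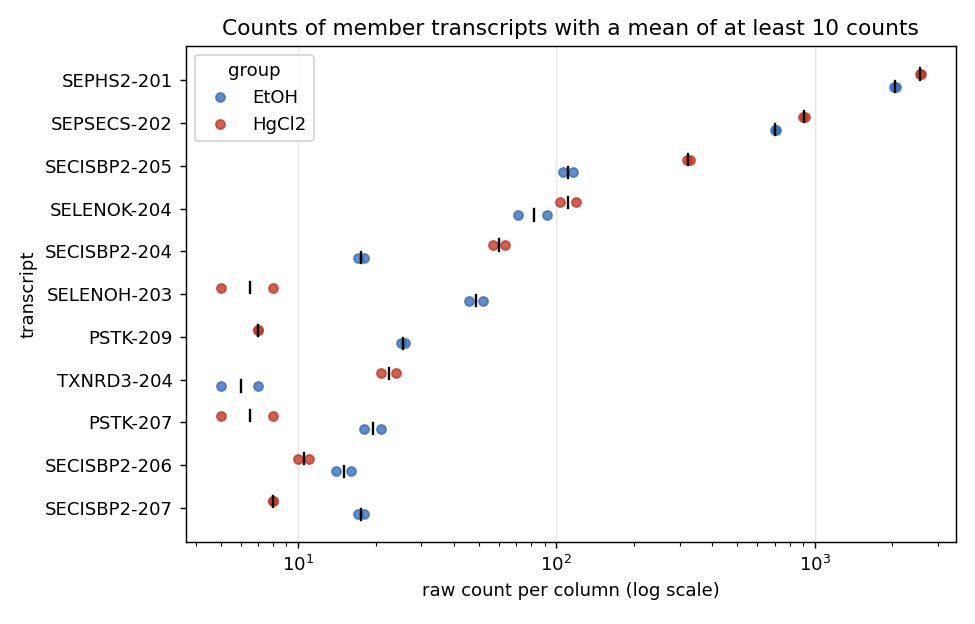
Raw counts in each column (log axis) of the 11 usable member transcripts; blue points are EtOH columns, red points HgCl2 columns and short black lines the group means. The red points lie to the right for SEPHS2-201, SEPSECS-202, SECISBP2-205, SELENOK-204, SECISBP2-204 and TXNRD3-204 and to the left for the others.

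SEPHS2, the enzyme that supplies selenophosphate and is a selenoprotein itself, had the most counts. Its only listed transcript (ENST00000478753, chromosome 16 from 30443631 to 30445874) is its own over all 2244 bases. It was counted 2023 and 2063 times in EtOH and 2564 and 2573 times in HgCl2. Both HgCl2 columns were higher, with a log2 fold change of 0.47 (95% interval 0.39 to 0.56), which is 1.39-fold and 0.35 above the median of all usable transcripts. On the scale of the deposited FPKM, which divides by length, its level was 166 in EtOH and 260 in HgCl2, the highest of the usable member transcripts, and the log2 difference 0.65.

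SEPSECS, which converts the phosphoseryl-tRNA to selenocysteyl-tRNA, differed by nearly as much. Its canonical transcript (ENST00000382103, chromosome 4 from 25120014 to 25160449) had 706 and 703 counts in EtOH and 899 and 920 in HgCl2. The log2 fold change was 0.51 (0.37 to 0.66), and the intervals of SEPHS2 and SEPSECS overlap. Its 2241 own bases in a row lie in the last exon, exon 11. At 200 counts or more on average, as here, 4.65% of all transcripts were at least 2-fold higher and 2.03% at least 2-fold lower in HgCl2, and neither SEPHS2 nor SEPSECS reached 2-fold.

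PSTK, the kinase that acts before SEPSECS, went the other way in what was counted of it. PSTK-209 (ENST00000497219, chromosome 10 from 122981984 to 122997513), a transcript without a defined coding region, had 26 and 25 counts in EtOH and 7 and 7 in HgCl2, a log2 fold change of -1.72 (-3.17 to -0.48). PSTK-207, a retained intron (ENST00000493461), had 21 and 18 counts in EtOH and 5 and 8 in HgCl2 (-1.44, interval -2.99 to -0.10). Their own bases, 874 of 2210 in PSTK-209 and 2733 of 3538 in PSTK-207, lie outside the exons of the canonical PSTK-203, which had 0 counts. PSTK-209 and PSTK-207 averaged between 10 and 30 counts, where 34.6% of all transcripts were at least 2-fold lower. SEPHS1, a relative of SEPHS2 that does not make selenophosphate, had 5 and 5 counts on SEPHS1-205 in EtOH and 0 in HgCl2, which is at least 1.51-fold lower against a limit of 3 counts in the group mean.

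SECISBP2, the protein that reads the SECIS element, held both transcripts of the set that differed at least 2-fold with 30 or more counts on average, and both were higher in HgCl2. SECISBP2-205 (ENST00000470305, chromosome 9 from 89322200 to 89330445, no coding region defined) had 106 and 116 counts in EtOH and 321 and 328 in HgCl2. Its log2 fold change was 1.69 (1.38 to 2.02), which is 3.23-fold and at percentile 87.8 of all usable transcripts. Its mean over the columns, 217.75, is near an edge of the classes used here, with 4.65% of all transcripts at least 2-fold higher from 200 counts up and 22.1% between 30 and 200 counts. SECISBP2-204 (ENST00000440898, chromosome 9 from 89332588 to 89338510, annotated as protein-coding) had 18 and 17 counts in EtOH and 63 and 57 in HgCl2, a log2 fold change of 1.92 (1.13 to 2.78), or 3.79-fold. Between 30 and 200 counts, 14.3% of all transcripts were at least 2-fold lower.

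The bases that set SECISBP2-205 and SECISBP2-204 apart are intronic in the canonical messenger SECISBP2-202, which has 17 exons and 0 counts. SECISBP2-205 has 3227 own bases between exons 2 and 3 and 1559 between exons 5 and 6, and SECISBP2-204 has 320 just before exon 6. The edges of these stretches are shown because they distinguish the transcripts from the messenger; the table has no counts per base, so where on a transcript its reads lay was not measured. Lower case marks the exon shared with SECISBP2-202 and capitals the own bases, on GRCh38.

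SECISBP2-205, chr9:89328867-89328926, plus strand: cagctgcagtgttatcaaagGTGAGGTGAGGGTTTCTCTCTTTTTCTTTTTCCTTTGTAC
SECISBP2-204, chr9:89332868-89332927, plus strand: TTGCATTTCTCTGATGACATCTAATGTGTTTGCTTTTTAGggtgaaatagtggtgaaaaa

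In SECISBP2-205 the exon runs on through the GT that begins the intron, and in SECISBP2-204 the own bases end with the AG that closes it. The other SECISBP2 transcripts with counts had fewer in HgCl2. SECISBP2-206, with 131 own bases between exons 6 and 7, had 16 and 14 counts in EtOH and 10 and 11 in HgCl2 (log2 fold change -0.37, interval -1.66 to 0.86). SECISBP2-207, with 759 between exons 14 and 15, had 17 and 18 counts and 8 and 8 (-0.99, interval -2.40 to 0.30), which became -1.03, past 2-fold, both with scaling by total counts and without EtOH replicate 1. SECISBP2-209, with 217 own bases between exons 1 and 2, had 6 and 6 counts in EtOH and 0 and 1 in HgCl2.

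Summed over all its transcripts, SECISBP2 had 167 counts in EtOH and 403.5 in HgCl2 (log2 fold change 1.42, interval 1.15 to 1.69). SECISBP2-205 made up 66.5% of the sum in EtOH (95% Clopper-Pearson interval 58.8% to 73.6%) and 80.4% in HgCl2 (76.0% to 84.0%). SECISBP2-207 made up 10.5% (6.51% to 16.5%) and 1.98% (0.86% to 3.86%). The gene had transcripts in different directions, but not both past 2-fold, which 13.3% of the 1975 genes with at least 2 usable transcripts had.

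**Figure D3:**
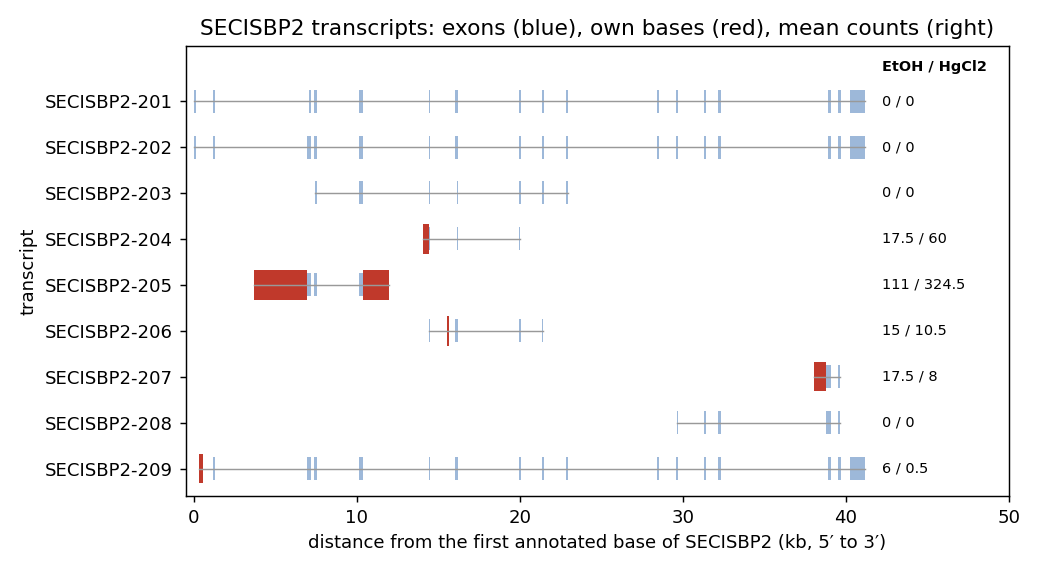
The 9 listed transcripts of SECISBP2 along the gene, with the distance from its first annotated base on the horizontal axis; exons are blue, bases that no other listed transcript covers are red, and the mean counts of EtOH and HgCl2 stand at the right. The long red blocks of SECISBP2-205 and the red block of SECISBP2-204, with 111 / 324.5 and 17.5 / 60 counts, lie in the 5′ part of the gene, and that of SECISBP2-207, with 17.5 / 8, near the 3′ end.

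SELENOK, a small selenoprotein of the endoplasmic reticulum membrane that takes part in the disposal of misfolded proteins, was measured on its canonical transcript. SELENOK-204 (ENST00000495461, chromosome 3 from 53884417 to 53891859) had 92 and 71 counts in EtOH and 103 and 119 in HgCl2. The log2 fold change was 0.59 (0.16 to 1.02), and the lower HgCl2 column lay above the higher EtOH column. Its 884 own bases in a row are in the last exon, exon 5. Its retained intron SELENOK-202 had 6 and 8 counts in EtOH and 1 and 1 in HgCl2 (log2 ratio -2.66, interval -8.16 to 0.30), and SELENOK-201 had 5 and 3 counts in EtOH and 0 in HgCl2.

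TXNRD3, the thioredoxin reductase with an added glutaredoxin domain that is best known from testis, was the only one of its family with usable counts. TXNRD3-204 (ENST00000524230, chromosome 3 from 126607050 to 126655124) had 5 and 7 counts in EtOH and 24 and 21 in HgCl2. Its log2 fold change was 2.05 (0.71 to 3.64), the largest increase of the set, and rests on the fewest counts in EtOH among the usable transcripts. Its FPKM was 0.375 in EtOH, the lowest of the usable member transcripts, and 1.76 in HgCl2. Between 10 and 30 counts, 29.7% of all transcripts were at least 2-fold higher. TXNRD3-201, a transcript without a defined coding region, had 1 and 4 counts in EtOH and 0 in HgCl2.

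SELENOH, a nucleolar selenoprotein, was counted on a single transcript, the retained intron SELENOH-203 (ENST00000533321, chromosome 11 from 57741513 to 57743057). It had 46 and 52 counts in EtOH and 8 and 5 in HgCl2. The log2 fold change was -2.77 (-4.22 to -1.59), which is 6.83-fold lower and at percentile 1.36 of all usable transcripts. Between 10 and 30 counts, 34.6% of all transcripts were at least 2-fold lower. Its own bases are 162 between exons 2 and 3 and 205 between exons 3 and 4 of the canonical SELENOH-204, which had 0 counts. The edge of the first stretch is shown as above, with the intron in capitals.

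SELENOH-203, chr11:57741935-57741994, plus strand: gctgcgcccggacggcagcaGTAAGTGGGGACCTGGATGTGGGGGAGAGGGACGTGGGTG

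**Figure D4:**
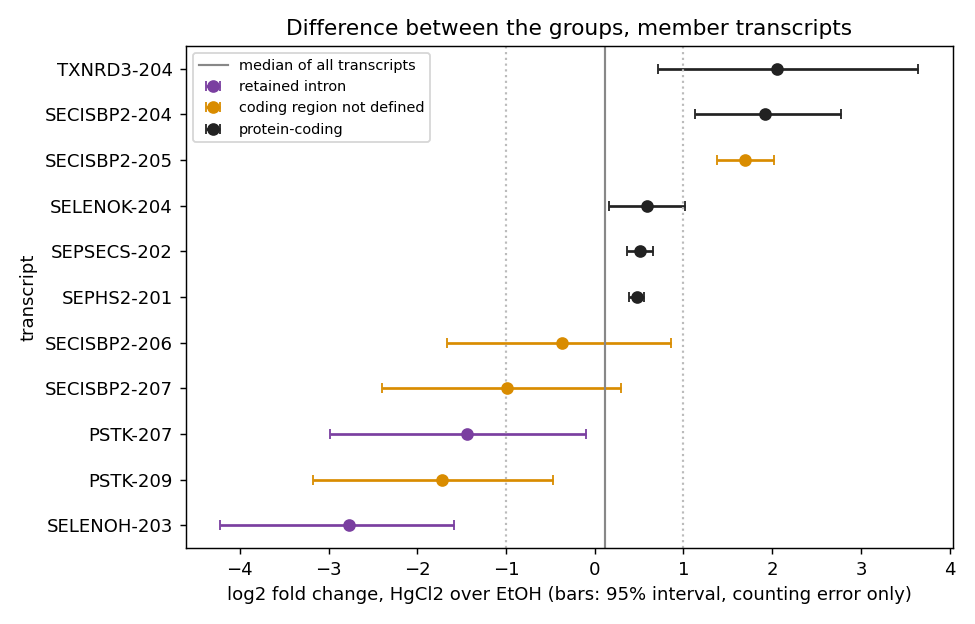
Log2 fold change of HgCl2 over EtOH for the 11 usable member transcripts, with 95% intervals that cover counting error only; colours give the annotated class, dotted lines 2-fold and the grey line the median of all usable transcripts, 0.12. Black points, the protein-coding transcripts, all lie between 0.47 and 2.05, and both retained introns lie below -1.

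By annotated class, with few transcripts in each and no test between classes, the values were as follows. The 5 annotated as protein-coding had log2 fold changes between 0.47 and 2.05, and 2 of them were at least 2-fold higher, against 13% of all usable protein-coding transcripts, and 0 at least 2-fold lower, against 16.3%. Of the 4 without a defined coding region, SECISBP2-205 was at least 2-fold higher (35.8% of this class) and PSTK-209 at least 2-fold lower (20.6%). Both retained introns were at least 2-fold lower, against 19.7% of all usable retained introns, of which 32.5% were at least 2-fold higher.

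Retained introns with few counts lay in the same direction, a view chosen after their values were seen. The direction is not particular to this class. Of the 19 members of any class with a count but a mean under 10, 17 had the higher mean in EtOH, the protein-coding SECISBP2-209 among them. Among all transcripts of such counts, 73.2% did. Down to a mean of 3 counts the set had 7 retained introns, all with a mean under 30. Taking a group mean below 3 counts as 3, 6 of them were at least 2-fold lower and 0 higher. A transcript with few counts reaches a mean of 3 through the group where it is higher. Those with a HgCl2 mean of 3 or less could not come out 2-fold higher, so these numbers only describe the set. Of all 3279 retained introns between 3 and 30 counts, 34.1% were lower and 18.6% higher. SELENOW-214, of the small thioredoxin-like SELENOW, had 9 and 10 counts in EtOH and 0 in HgCl2, at least 2.87-fold lower against the limit of 3 counts. SELENOS-202, of a partner of SELENOK in the endoplasmic reticulum membrane, had 10 and 13 counts in EtOH and 2 and 2 in HgCl2 (log2 ratio -2.38, interval -5.59 to -0.20). SEPSECS-206 had 6 and 11 counts and 3 and 3 (-1.36, interval -3.89 to 0.67), while the canonical messenger of the same gene was higher in HgCl2. SELENOP-210, of the selenium carrier of plasma, had 4 and 4 counts and 3 and 2 and was not past 2-fold.

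On the same terms, 17 member transcripts of any class had a mean of 3 or more counts, of which 3 were at least 2-fold higher and 7 lower, against 16.8% and 27.5% of all. Between 3 and 10 counts there were 6, of which 0 were higher and 4 lower, against 9.53% and 40.9%.

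Most of the set had too few counts for a ratio. The 19 member transcripts with a count but a mean under 10 include those named above with a ratio or a limit. Of these 19, 17 had the higher mean in EtOH, and 12 were at 0 in both HgCl2 columns against 1 at 0 in both EtOH columns. Among all 27838 transcripts of such counts the shares were in the same order, with 73.2% higher in EtOH, 41.6% at 0 in both HgCl2 columns and 13.1% at 0 in both EtOH columns. SELENOT, a thioredoxin-like selenoprotein of the endoplasmic reticulum, had 5 and 2 counts over its transcripts in EtOH and 0 in HgCl2. SELENOO, a mitochondrial pseudokinase that transfers AMP to proteins, had 2 and 1 in EtOH and 0 in HgCl2.

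Copies of these genes elsewhere in the genome can take reads that belong to them. Of the 16 transcripts of 15 pseudogenes named after members, 1 had usable counts, that of SELENOTP1 (ENST00000456723, chromosome 9 from 6278667 to 6279153), which is named here because of its values. It had 66 and 69 counts in EtOH and 103 and 118 in HgCl2 (log2 fold change 0.85, interval 0.40 to 1.31). Its 487 bases aligned without gaps to the canonical SELENOT messenger with 98.2% identity, 9 bases differing, while that messenger had 0 counts. Reads of SELENOT and of SELENOTP1 cannot be told apart with certainty from these tables, so neither value is read as the level of a gene.

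Summed over the transcripts of a gene, 4 of the 7 genes with usable counts differed at least 2-fold, against 33.5% of all genes whose summed counts averaged 10 or more. TXNRD3 (1.55, interval 0.36 to 2.88) and SECISBP2 were higher, as were 14.1% of all genes. The SECISBP2 sum lay mostly on SECISBP2-205, without a defined coding region (66.5% in EtOH, 80.4% in HgCl2), and the canonical SECISBP2-202 had 0 counts. PSTK (-1.59, interval -2.59 to -0.69) and SELENOH were lower, as were 19.4%, and neither sum holds a protein-coding transcript with counts. On protein-coding transcripts alone, 2 of 5 genes differed at least 2-fold. The share of all genes on that measure was not computed, and the 33.5% does not apply to it. When edgeR took the columns as labelled, 9 of 15 tested member transcripts passed an adjusted p-value under 0.05 and 2-fold. Of all tested transcripts, 41.1% did. Fewer members passed when a column was left out, which leaves a group with a single column. The matching shares of all transcripts are not given. The edgeR test compares these libraries, not the conditions.

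Genes around selenium that are not members were also examined. A list of 17 further genes holds SARS1, which loads serine on the tRNA, the SECIS-binding SECISBP2L and RPL30, TRNAU1AP, SCLY, which frees selenium from selenocysteine, LRP8, a receptor for SELENOP, and ubiquitin ligase adaptors for cut-off selenoproteins, among others. Of its 27 usable transcripts, from 12 genes, 5 were at least 2-fold higher and 7 at least 2-fold lower, beside 21.2% and 19.6% of all, with a median of -0.03. They ranged from -1.94 for APPBP2-206 to 2.53 for SCLY-220, a retained intron, with APPBP2-203, at 0 and 1 counts in EtOH and 40 and 54 in HgCl2, above that. The leading transcripts at 100 or more counts on average, those of RPL30, NCL, ELAVL1, XPO1, LRP8 and APPBP2, lay between -0.45 and 0.54. Of 8 cysteine-containing relatives and substrates, GPX8, TXN and TXN2 had a usable transcript each, and none was past 2-fold (0.39, 0.77 and -0.56).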

How the data were processed

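Poly-A RNA of H1299 cells after 48 h in 0.6% EtOH or 5 μM HgCl2 was analysed. The authors trimmed reads with Trim Galore, aligned them with STAR 2.5.4b to GRCh38 and made the deposited counts per transcript of Ensembl 98 with Rsubread; the counting options are not given in the sources used here. The study calls its RNA-seq directional but names the TruSeq RNA kit, which as sold does not mark strand, so use of strand is uncertain. The authors computed the FPKM in DESeq2 1.26.0, scaled by median ratios.

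TMM factors and the quasi-likelihood fit came from edgeR 4.0.16 over the transcripts whose FPKM averaged above 1 in either group, in R 4.3.3; alternatives used DESeq2 1.42.0 and limma 3.58.1. Ratios, intervals and figures were computed in Python 3.11.15 with scipy 1.17.1, the alignment with Biopython 1.88. The steps were tested on simulated data. Gene names and sequences are from GENCODE 44 on GRCh38, in which 223558 identifiers were found; the other 3810 hold 0.187% of the counts. Own bases were computed over listed transcripts of that release.

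The genes, lists and rules were chosen with earlier results of these data known. Values are given for the leading transcript of each gene with usable counts, and for others past 2-fold with a mean of at least 30 counts; further ones were named to describe the same genes. The columns of a group differ by less than sampling noise, so no test across conditions was made.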

Additional observations from a re-analysis of the deposited data

How the results depend on the processing

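For the 11 usable transcripts, 121 values were computed under alternatives that can alter a single ratio; none changed sign, and 114 stayed inside the interval given. The other 7 were higher values of SEPHS2-201 and SEPSECS-202, between 0.61 and 0.69, with scaling by TMM over all transcripts or by FPKM.

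The number at least 2-fold higher stayed at 3, or 2 of the transcripts left with a stricter filter. The number at least 2-fold lower, 3, was 0 when every column needed 10 counts and with a mean of at least 30 counts, since these filters leave 6 and 5 transcripts, 1 with log2(FPKM + 1), and 7 both with no filter and with a mean of at least 3 counts (group means under 3 taken as 3), the latter chosen after seeing the data. The median of 0.47 was 0.65 by the FPKM ratio, 0.65 with log2(FPKM + 1) and with log2(FPKM + 0.1), 0.61 with TMM over all transcripts with a count, 0.59 with a mean of at least 30 counts, -0.59 with no filter and -0.86 with a mean of at least 3 counts. Leaving out a column gave 3 to 4 lower transcripts and medians of 0.42 to 0.48.

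The number past both edgeR thresholds, 9 of 15, was 8 of 15 with the replicate number as a block. It was 2 of 6 when every column needed 10 counts, and it was also lower without a column. The share of all transcripts past both thresholds is given for the main fit only. The replicate numbers are shared as numbers only: over 11891 transcripts, deviations of columns of the same number had a correlation of 0.01. Of the genes by summed counts, 2 of 5 in place of 4 of 7 passed 2-fold on protein-coding transcripts alone. The share of all genes on that measure was not computed. Depth limits the 19 member transcripts that have a count but a mean under 10.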
